A study of Sus scrofa with 3 samples.

Results

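The RNA brought down with EZH2 from pig skeletal muscle was set against the total RNA of the same tissue, transcript by transcript. All assembled transcripts with an FPKM value in both libraries were taken, joined by identifier, with identical entries counted once and values of 0 kept, so that 14580 of the 14580 transcripts in the series were used. FPKM is a number of fragments divided by transcript length and by the total mapped in that library. The tissue was longissimus dorsi, a long muscle of the back, of Large White female pigs at the age of 1 month. The EZH2 group was 1 library of RNA precipitated from muscle lysate with an antibody against EZH2, the IgG group was 1 library precipitated in the same way with IgG, and the lincRNAseq group was 1 library of total RNA from which ribosomal RNA had been removed. The labels name no treatment or genotype. There were no replicates, so the spread between samples is unknown, and the 95% Wilson intervals given below cover only counting error over transcripts.

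EZH2 is the enzyme of the Polycomb complex PRC2, which methylates a lysine of histone H3 and helps to keep genes silent. In muscle precursor cells it restrains muscle genes until the cells differentiate. The complex contacts many kinds of RNA, with a preference for G-rich stretches, and RNA immunoprecipitation recovers RNA attached to the antibody's target together with RNA that clings to the beads or the antibody, which the IgG precipitate measures.

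The study tested 3 lincRNAs by RIP-PCR, a PCR on precipitated RNA, and their sequences are shown because they identify the transcripts by which the precipitate was followed at the bench. The product of TCONS_00036665 is 296 nt long and runs from nucleotide 380 to 675 of its 3450-nt sequence. Capitals mark the primer sites at its ends, of 21 nt each, and the site at the 3′ end is printed as the strand of the transcript. For TCONS_00025364 and TCONS_00045380 the forward (F) and reverse (R) primers are shown, with no capitals.
TCONS_00036665 PCR product: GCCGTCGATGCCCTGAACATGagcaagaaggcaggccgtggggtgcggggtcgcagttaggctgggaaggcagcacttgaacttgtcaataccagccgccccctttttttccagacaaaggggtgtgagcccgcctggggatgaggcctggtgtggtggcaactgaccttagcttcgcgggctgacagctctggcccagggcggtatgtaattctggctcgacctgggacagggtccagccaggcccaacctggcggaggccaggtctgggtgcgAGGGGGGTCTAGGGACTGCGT
TCONS_00025364 F: ctccccactgtcttgcttca
TCONS_00025364 R: gacccagtgaccttggagtg
TCONS_00045380 F: accccgaaaacagacgagc
TCONS_00045380 R: cggacaaccagctatcacca

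All 3 of these lincRNAs were abundant in total muscle RNA and higher still in the EZH2 precipitate. TCONS_00036665, on chromosome 2, had an EZH2_FPKM of 317.5, a lincRNA_FPKM of 43.3 and an IgG_FPKM of 74.3. TCONS_00025364, on chromosome 15, had an EZH2_FPKM of 4905, a lincRNA_FPKM of 242.2 and an IgG_FPKM of 1086. TCONS_00045380, on chromosome 4, had an EZH2_FPKM of 3604, a lincRNA_FPKM of 234.2 and an IgG_FPKM of 472.1. Each was therefore also present in the control precipitate, at a value above that of total RNA. On the scale log2[(EZH2_FPKM + 2)/(lincRNA_FPKM + 2)] their ratios were 2.82, 4.33 and 3.93. TCONS_00025364 and TCONS_00045380 were ranks 4 and 5 in the precipitate against 79 and 82 in total RNA, and TCONS_00036665 was rank 60 against 357. The study picked these transcripts from the same libraries, so their ratios are a description and not independent evidence.

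The precipitate held fewer of the transcripts than total RNA did. EZH2_FPKM was above 0 for 6226 transcripts (42.7%), lincRNA_FPKM for 12466 (85.5%) and IgG_FPKM for 1043 (7.15%). Both EZH2 and lincRNAseq were above 0 for 5523 transcripts, lincRNAseq alone of this pair for 6943, EZH2 alone of this pair for 703, and both were listed at 0 for 1411. The median of the values above 0 was 3.38 in EZH2, with quartiles of 1.55 and 8.18, against 0.477 in lincRNAseq, with quartiles of 0.298 and 1.27. These medians cover detected transcripts only and leave out what fell below the floor of each library. The values summed to 175687 in EZH2, 236362 in lincRNAseq and 38726.6 in IgG over these transcripts. Annotated genes were not analysed here, so the tissue could not be checked against muscle markers such as ACTA1, the skeletal muscle actin.

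Numbers of reads are unknown, because FPKM carries no counts, but the relative depth of the precipitates could be read from their low values. Equal numbers of fragments on a transcript give the same fold between libraries whatever its length. Of the 815 transcripts above 0 in both precipitates, 79 (9.69%) had an IgG_FPKM within 2% of 5.05 times their EZH2_FPKM, and 291 (35.7%) were at this fold or at simple multiples of it. Whole fragments would give this if 1 fragment weighed 5.05 times as much in IgG as in EZH2. On this reading the IgG library was the shallower, and an IgG_FPKM of 0 says less than an EZH2_FPKM of 0. No such step was found between EZH2 and lincRNAseq, where 84 of 5523 transcripts were within 2% of the most common fold and 9.36% at it or at simple multiples of it, so their relative depth is unknown. An exact 0 can also be an estimate that failed, and for this reason transcripts are said below to be listed at 0.

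Whether an RNA was found in the precipitate depended only loosely on how much of it was in the muscle. Among the 2114 transcripts listed at 0 in total RNA, 33.3% (interval 31.3 to 35.3) were above 0 in EZH2. The share was 46.0% (44.7 to 47.3) of 5726 transcripts with a lincRNA_FPKM above 0.3 and up to 1, and 38.4% (32.8 to 44.3) of 271 with a lincRNA_FPKM above 30 and up to 100. It was 51.5% (44.0 to 59.0) of 167 transcripts above 100 and up to 1000. The share thus did not climb steadily from class to class, and it was lowest, at 33.3% and 35.4%, in the classes up to 0.1. Above 1000 there were 17 transcripts, of which 13 were above 0 in EZH2 and 6 in IgG. In the IgG precipitate the share was 4.97% of the transcripts at 0 in total RNA, 7.68% in the class up to 1, 8.12% in the class up to 100 and 16.8% in the class up to 1000. With transcripts above 0 in IgG left out, the class above 100 and up to 1000 had a share of 43.2% in EZH2, close to the 43.0% of the class above 0.3 and up to 1.

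**Figure D1:**
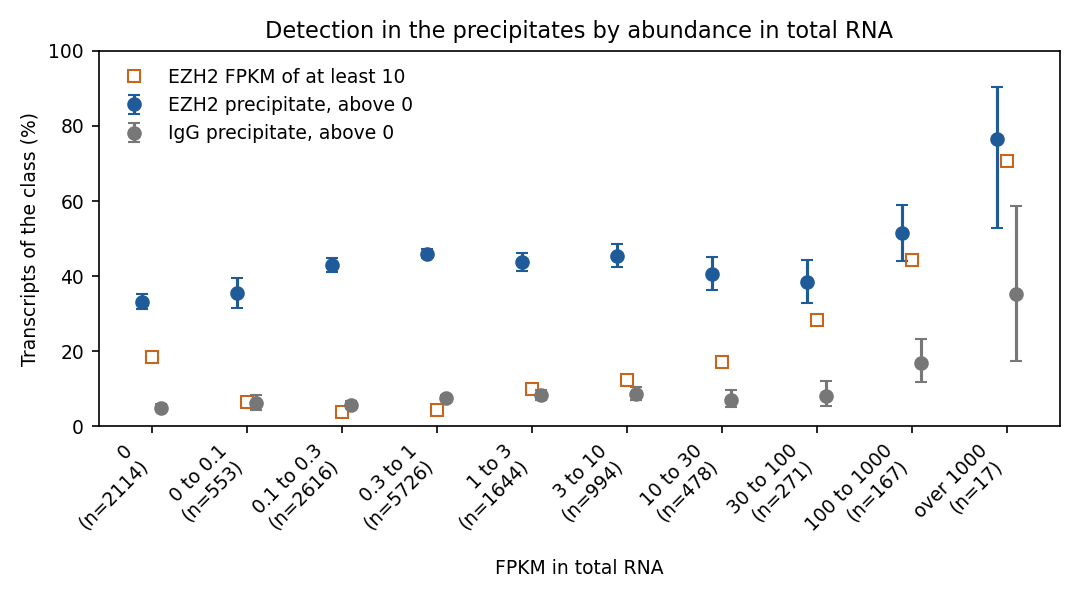
Share of transcripts above 0 in the EZH2 (blue) and IgG (grey) precipitates, in percent, by class of FPKM in total RNA (upper bound included in each class), with bars for 95% Wilson intervals, and share with an EZH2 FPKM of at least 10 (open squares, no interval drawn). The blue points lie between 33.3% and 51.5% in the 9 classes up to 1000, while the squares are lowest, at 3.94%, in the class above 0.1 and up to 0.3 and reach 44.3% in the class above 100 and up to 1000.

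Where a transcript was found, its level in the precipitate was higher in the more abundant classes from a lincRNA_FPKM of 0.1 upwards. The median EZH2_FPKM of detected transcripts was 3.59 in the class up to 0.1, 2.23 in the class above 0.1 and up to 0.3, 4.26 in the class above 3 and up to 10, and 36.0 in the class above 100 and up to 1000. Between the class above 0.1 and up to 0.3 and the class above 100 and up to 1000, the median lincRNA_FPKM of the same transcripts rose 904-fold and the median EZH2_FPKM 16.2-fold. These medians cannot be read as a relation between the libraries over all RNAs, because 57.1% of the class above 0.1 and up to 0.3 was listed at 0 in EZH2, and a rare transcript entered only where its EZH2_FPKM was high enough to be found. With zeros kept, EZH2_FPKM exceeded lincRNA_FPKM in 42.4% (40.5 to 44.3) of all transcripts of the class above 0.1 and up to 0.3, in 20.3% (17.9 to 22.9) of the class above 3 and up to 10, and in 6.59% (3.72 to 11.4) of the class above 100 and up to 1000. As the classes were formed by lincRNA_FPKM, which is 1 side of this comparison, the direction of these shares follows in part from the classes, and in the lowest of them the share nearly equals the 42.9% detected.

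Transcripts listed at 0 in total RNA did not follow this order either. Those found in EZH2 had a median EZH2_FPKM of 12.6, above the medians of all classes of lincRNA_FPKM up to 30, and 18.6% of the whole class had an EZH2_FPKM of at least 10. That share was 6.51% in the class up to 0.1, 3.94% up to 0.3 and 4.30% up to 1, and rose from 9.91% in the class up to 3 to 44.3% in the class above 100 and up to 1000. A high value in the precipitate was thus most frequent among the RNAs most abundant in muscle and rarest among those that were scarce but measurable, with the RNAs listed at 0 between them.

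**Figure D2:**
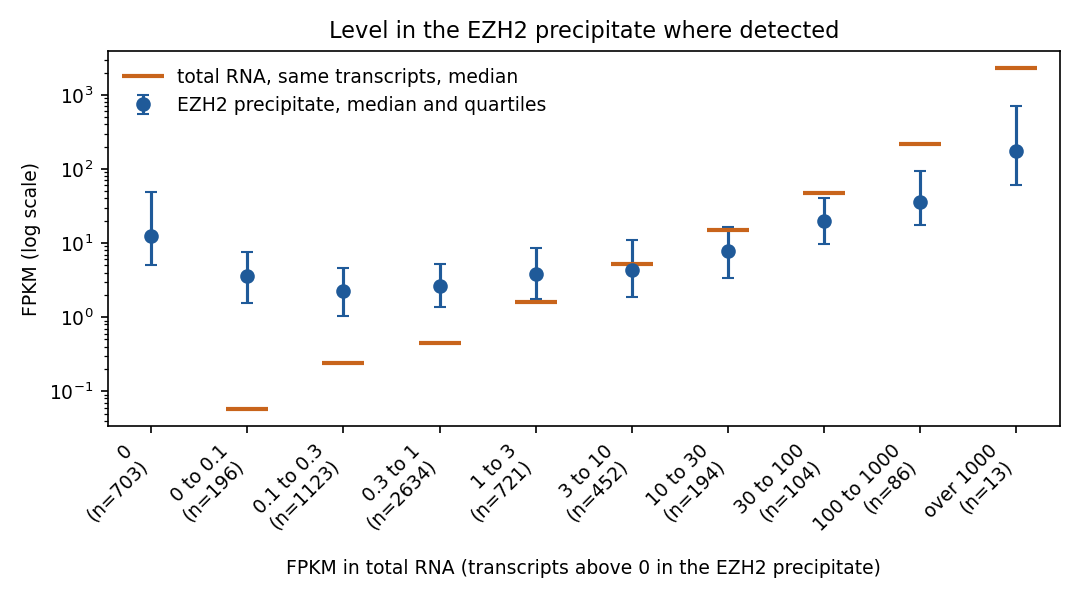
FPKM on a log axis for transcripts above 0 in the EZH2 precipitate, by class of FPKM in total RNA, with the median and quartiles in the precipitate (blue) and the median of the same transcripts in total RNA (orange). The blue points rise from 2.23 to 36.0 while the orange marks rise from 0.242 to 218.6 between the classes 0.1 to 0.3 and 100 to 1000, and the transcripts at 0 in total RNA have a median of 12.6.

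Levels in the precipitate followed those of total RNA only in part. Pearson's r of log2(FPKM + 2) was 0.17 over all 14580 transcripts and 0.46 over the 5523 above 0 in both libraries. These are descriptions across transcripts of 1 library a side, which are not independent replicates and which share the length used for both FPKM values. Among transcripts above 0 in both libraries, r was 0.45 for the 1570 with a lincRNA_FPKM above 1 and 0.40 for the 99 above 100. On ranks it was 0.32 and 0.41. As the 99 are among the 1570 and no interval is given, the differences between these values are a description only. For the levels, r was 0.41 for the 4843 on chromosomes, 0.57 for the 680 on scaffolds not placed on a chromosome, and 0.40 for the 4778 listed at 0 in IgG. On ranks these were 0.22, 0.45 and 0.25. Among these sets of transcripts above 0 in both libraries, the relation was thus closest on the scaffolds by both measures. This did not hold with zeros kept. The rank value was then 0.01 on scaffolds, within the range on chromosomes, from -0.03 on chromosome 18 to 0.16 on chromosome 2.

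The heads of both lists overlapped in a minority of their transcripts. Of the 10 highest transcripts in each library 1 was shared, of the 100 highest 13 (13%), and of the 1000 highest 218 (21.8%), where lists of 100 and 1000 make up 0.686% and 6.86% of all transcripts. With the IgG control, EZH2 shared 7 of its 10 highest, 34 of its 100 highest and 195 of its 1000 highest. The 10 and 100 highest of EZH2 thus overlapped more with the control than with total RNA, while the 1000 highest overlapped more with total RNA. The control had only 1043 transcripts above 0, so its 1000 highest were nearly all that it held. Among the 100 highest of EZH2, 61 were listed at 0 in total RNA, and among the 100 highest of total RNA, 41 were listed at 0 in EZH2, against 14.5% and 57.3% of all transcripts. Few transcripts made up a large part of either sum: the 10 highest held 41.4% of the summed FPKM in EZH2 and 63.2% in lincRNAseq. The 10 highest of total RNA held 3.04% of the sum in EZH2, and the 10 highest of EZH2 held 28.9% of the sum in total RNA, nearly all of it from TCONS_00071881, which was in both lists and is described below.

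**Figure D3:**
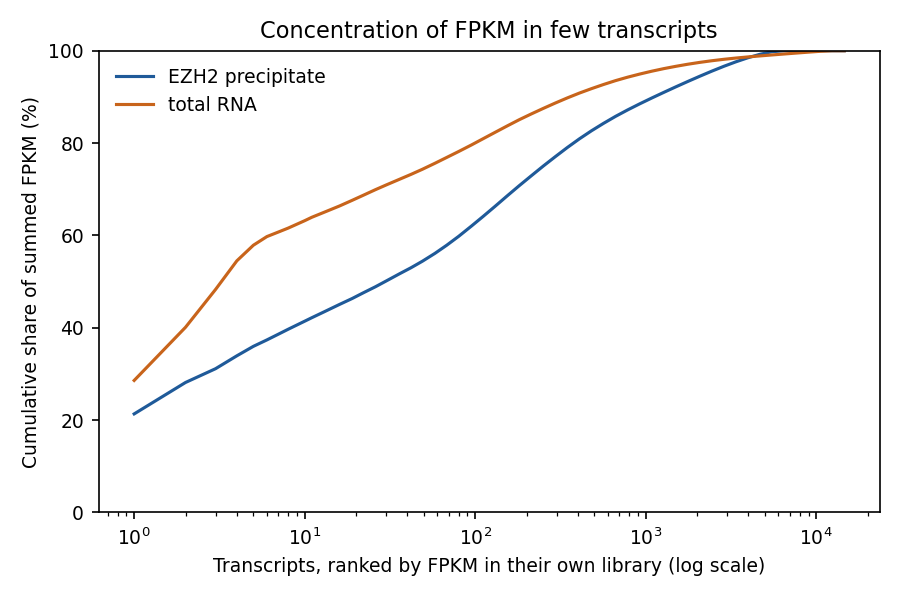
Cumulative share of the summed FPKM, in percent, against the rank of transcripts in their own library on a log axis, for the EZH2 precipitate (blue) and total RNA (orange). The 10 highest transcripts hold 41.4% in EZH2 and 63.2% in total RNA, and the 100 highest 62.7% and 80.0%.

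TCONS_00053344, on chromosome 6, was the highest in the precipitate with an EZH2_FPKM of 37498, 21.3% of the sum, and was listed at 0 in total RNA, with an IgG_FPKM of 9387. TCONS_00045379, on chromosome 4 and next in number to the lincRNA TCONS_00045380 described above, had an EZH2_FPKM of 11954, a lincRNA_FPKM of 0 and an IgG_FPKM of 1882. Both were therefore also high in the control. TCONS_00071881, on scaffold GL894823.1, was the highest in total RNA with a lincRNA_FPKM of 67573, 28.6% of the sum, and was rank 8 in the precipitate with an EZH2_FPKM of 1892, with an IgG_FPKM of 230.7. TCONS_00071869, on scaffold GL894812.1, had a lincRNA_FPKM of 27215, an EZH2_FPKM of 135.0 and an IgG_FPKM of 0. Their log2 ratios were -5.16 and -7.63, which follows in part from their choice as the highest in total RNA, and both were present in the precipitate.

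A log2 ratio of at least 1, by which a transcript was counted as higher in the precipitate, was reached by 2945 of 14580 transcripts (20.2%), and a ratio of at most -1 by 1692 (11.6%). The other 9943 (68.2%) lay between. Of the higher transcripts, 656 (22.3%) were listed at 0 in total RNA, against 14.5% of all transcripts. A lincRNA_FPKM above 0 and up to 1 was found for 1854 (63.0%), near the 61.0% of all transcripts, and one above 1 for 435 (14.8%), against 24.5%. These shares follow in part from the ratio, which a low lincRNA_FPKM raises. The control held 420 of the higher transcripts (14.3%) and 395 of the 3281 other transcripts above 0 in EZH2 (12.0%), a difference that was not tested. Of the lower transcripts 1340 (79.2%) were listed at 0 in the precipitate, against 57.3% of all transcripts, which follows in part from the ratio, as it counts a low EZH2_FPKM. With a pseudocount of 0.1 in place of 2 the counts were 4670 and 7117, so that higher transcripts made up 39.6% of those past the threshold in place of 63.5%, and the balance of the directions turned with the pseudocount. Scaling both libraries to the same sum without the 10 highest of either moved EZH2 by -0.20 (log2) and gave 2651 and 1725.

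**Figure D4:**
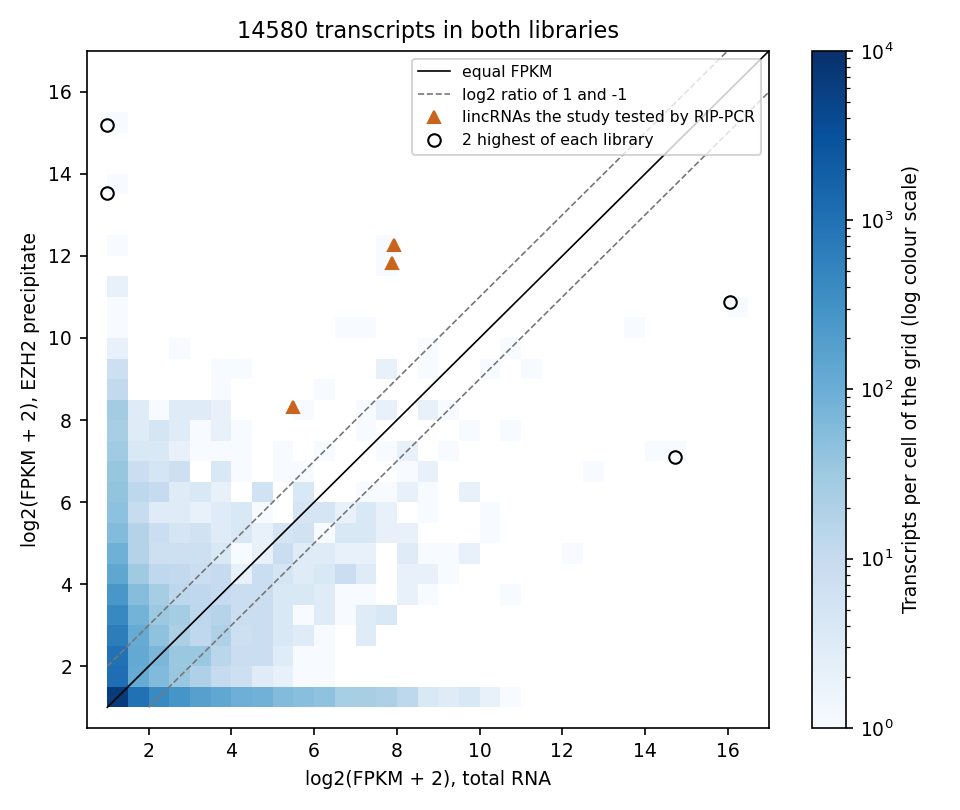
Number of transcripts, on a log colour scale, in cells of log2(FPKM + 2) in total RNA (horizontal) and in the EZH2 precipitate (vertical), with lines for equal FPKM and for log2 ratios of 1 and -1, triangles for the 3 lincRNAs tested by RIP-PCR and circles for the 2 highest transcripts of each library. Many transcripts lie along the edges at 0 in either library, and the 3 triangles lie above the line for a ratio of 1.

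The ends of the ratio among transcripts above 0 in both libraries lay on unplaced scaffolds. TCONS_00070185, on GL893554.2, had the highest log2 ratio, 6.57, with an EZH2_FPKM of 756.4, a lincRNA_FPKM of 5.98 and an IgG_FPKM of 146.8. TCONS_00074378, on GL896538.1, followed with a log2 ratio of 6.48, an EZH2_FPKM of 176.8, a lincRNA_FPKM of 0.00343 and an IgG_FPKM of 0. These differ in the control, which held only the former. At the other end, TCONS_00072071, on GL895023.1, had a log2 ratio of -7.42 with an EZH2_FPKM of 9.87, a lincRNA_FPKM of 2030.4 and an IgG_FPKM of 0, next to TCONS_00071869 with its ratio of -7.63.

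At a lincRNA_FPKM of at least 10, RNAs were missing from the precipitate about as often as others, and at higher minimums less often. Over all transcripts 8354 of 14580 (57.3%) were listed at 0 in EZH2. Of the 933 transcripts with a lincRNA_FPKM of at least 10, 536 (57.4%, 54.3 to 60.6) were listed at 0 in EZH2, and together they held 16.5% of the sum in total RNA. Of the 184 with at least 100 these were 85 (46.2%, 39.1 to 53.4), and of the 17 with at least 1000 they were 4, all on unplaced scaffolds, where 12 of the 17 lay. Absence from the EZH2 precipitate went with absence from the control: among the transcripts of at least 10, IgG_FPKM was above 0 for 13 of the 536 (2.43%) and for 77 of the 397 found in EZH2 (19.4%). Over all transcripts these shares were 2.73% and 13.1%. The share listed at 0 was 62.7% (57.5 to 67.6) of 346 transcripts on unplaced scaffolds and 54.3% (50.3 to 58.3) of 587 on chromosomes, with intervals that overlap. At a minimum of 3 these shares were 62.2% (58.3 to 65.9) and 53.1% (50.4 to 55.8), with intervals that do not overlap. Unplaced scaffolds gave 39 of the 85 transcripts of at least 100 (45.9%), close to the 81 of 184 (44.0%) that they gave of all transcripts at this level.

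The most abundant of the RNAs listed at 0 in EZH2 were TCONS_00070343, on GL893662.1, with a lincRNA_FPKM of 1734, and TCONS_00073581, on GL896291.1, with a lincRNA_FPKM of 1209. Both were also listed at 0 in IgG. TCONS_00066839, on chromosome 9 and chosen after its values were seen, was unlike them: its lincRNA_FPKM was 344.9 and its IgG_FPKM 75.0, with an EZH2_FPKM of 0. An RNA could thus be listed at 0 in EZH2 while the control held it.

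The opposite case, RNA in the precipitate that was listed at 0 in total RNA, included the highest values of the library. Of the 1310 transcripts with an EZH2_FPKM of at least 10, 393 (30%, 27.6 to 32.5) were at 0 in total RNA, against 14.5% of all transcripts and 11.3% of those above 0 in EZH2, and together they held 57.1% of the sum in EZH2, of which TCONS_00053344 alone gave 21.3% of the sum and TCONS_00045379 6.80%. Without TCONS_00053344 they held 45.4% of what remained. The share was higher, 125 of 234 (53.4%, 47.0 to 59.7), at an EZH2_FPKM of at least 100, and 8 of 15 at 1000 or more. The control held all 8 of the last, 27 of the 125 (21.6%) and 54 of the 393 (13.7%). Among transcripts of the same EZH2 minimum that were above 0 in total RNA, the control held 41 of 109 (37.6%) at 100, 193 of 917 (21.0%) at 10 and all 7 at 1000. At minimums of 10 and 100 the control's share was lower for RNAs at 0 in total RNA, a difference that was not tested. By place, 361 of 1066 precipitated transcripts on chromosomes (33.9%, 31.1 to 36.8) and 32 of 244 on unplaced scaffolds (13.1%, 9.45 to 17.9) were at 0 in total RNA, where all transcripts had 15.6% and 6.14%, so the difference between places was present in the whole list. Because a failed estimate also gives a 0, RNA that was absent from muscle and RNA whose value was not estimated cannot be told apart here.

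Several of these RNAs came in runs of consecutive identifiers on a chromosome. Of the 125 with an EZH2_FPKM of at least 100, 42 (33.6%) had a transcript with the preceding or following number in the same set, against 4 of the 85 abundant transcripts listed at 0 in EZH2 (4.71%). The sets differ in size and in place, with 7 of the 125 and 39 of the 85 on unplaced scaffolds. No share expected for sets of these sizes is given here, so the shares are a description only. At a minimum of 10 the shares were 16.5% of 393 against 10.8% of 536, and at 3 they were 18.0% of 618 against 18.1% of 1078. A larger set holds more neighbours whatever its members, so these shares cannot be compared directly between sets or minimums. The longest run, on chromosome 15, was of 6 transcripts from TCONS_00025358 to TCONS_00025363, chosen after their values were seen, with EZH2_FPKM values from 702.2 to 5242 and IgG_FPKM values from 279.5 to 2658. It ends next to the lincRNA TCONS_00025364, which total RNA did hold. Other runs on chromosome 15 had 4 transcripts each, with EZH2_FPKM values of 201.5 to 578.6 and 116.6 to 1002, and IgG_FPKM above 0 in none of the former and 2 of the latter. Runs of 3 lay on chromosome 16, at 174.4 to 272.7 with IgG at 0, and on chromosome X, at 199.3 to 712.0 with 1 above 0 in IgG. The runs thus included RNAs that the control held and RNAs that it did not. Whether the members of a run overlap or are parts of 1 RNA was not tested, as positions were not used here.

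Precipitated RNA came from every chromosome, and the share of transcripts found differed between the ends of the order. The transcripts lay on 19 chromosomes, 18 autosomes and X (12836 transcripts), and on 676 unplaced scaffolds (1744 transcripts). The share above 0 in EZH2 ran from 37.0% (32.4 to 41.9) on chromosome 11 to 47.1% (43.9 to 50.3) on chromosome 6, and was 41.5% on unplaced scaffolds. The intervals of these chromosomes, picked as the ends of the order, did not overlap, and all others lay between. The highest transcript in EZH2 on chromosome 11, TCONS_00009928, had an EZH2_FPKM of 113.6, a lincRNA_FPKM of 0 and an IgG_FPKM of 44.1, and on chromosome 6 it was TCONS_00053344.

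**Figure D5:**
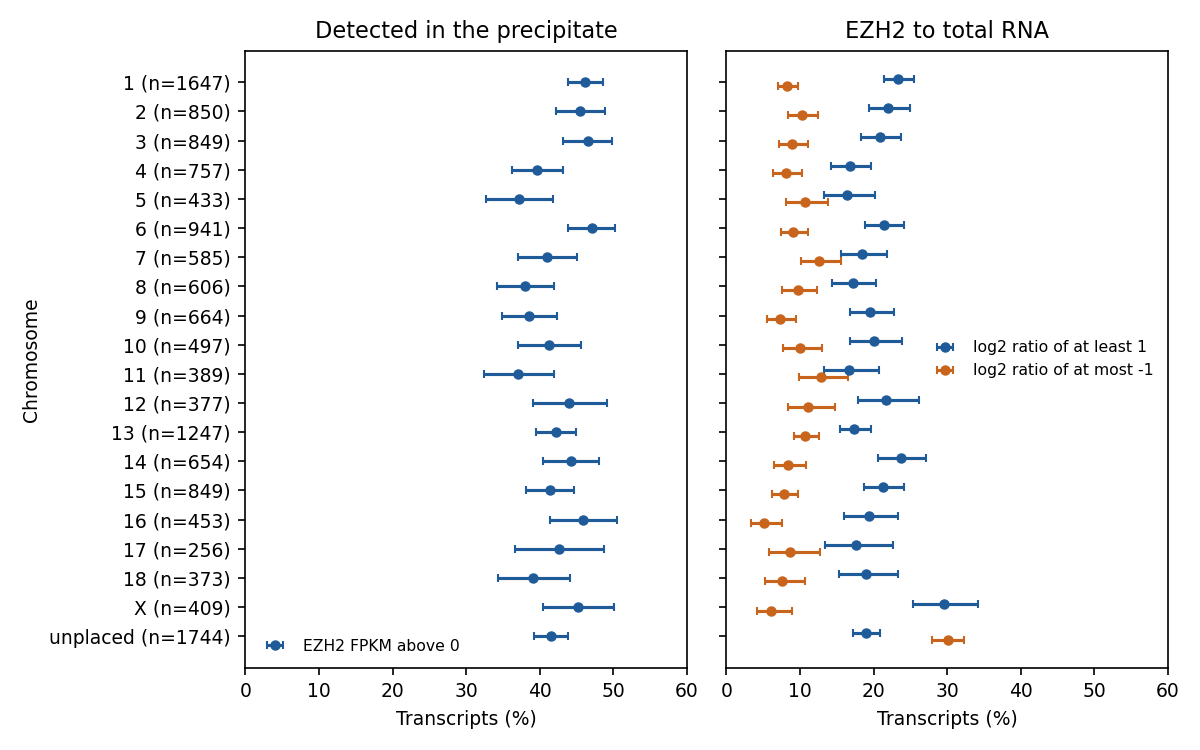
Share of transcripts of each chromosome, in percent with 95% Wilson intervals, that were above 0 in the EZH2 precipitate (left) and that had a log2 ratio of EZH2 to total RNA of at least 1 (blue, right) or at most -1 (orange, right). Detection lies between 37.0% and 47.1%, while X has 29.6% with a ratio of at least 1 and unplaced scaffolds have 30.1% with a ratio of at most -1.

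Chromosome X and the unplaced scaffolds departed from the autosomes in opposite directions in the ratio to total RNA, but not in level, as the median EZH2_FPKM of detected transcripts was 5.60 on X and 5.59 on scaffolds, against at most 3.76 on any autosome. On X, 121 of 409 transcripts (29.6%, 25.4 to 34.2) had a log2 ratio of at least 1, against 20.1% (19.4 to 20.8) on autosomes and 18.9% on scaffolds. The next highest chromosomes were 14 with 23.7% and 1 with 23.4%. Detection in EZH2 was 45.2% on X, with an interval of 40.5 to 50.1 that holds the 42.8% of autosomes. An EZH2_FPKM of at least 100 was reached by 24 X transcripts (5.87%, 3.97 to 8.58), against 1.49% (1.29 to 1.72) on autosomes together. These 24 lay from TCONS_00078139 to TCONS_00078694, a stretch of identifiers with 79 listed transcripts out of the 409 on X. The share is therefore not one of X as a whole, and its interval takes no account of this. Chromosome 15 was near X in this, with 38 of 849 (4.48%, 3.28 to 6.08). On X, 15 of the 24 were at 0 in total RNA and 6 were above 0 in IgG. Total RNA also held fewer of the X transcripts, with 76.3% (71.9 to 80.1) above 0 against 84.6% (84.0 to 85.3), while the IgG shares were 8.07% on X and 7.10% on autosomes. TCONS_00078177, the highest on X in EZH2 and chosen after its values were seen, had an EZH2_FPKM of 712.0 and was listed at 0 in both total RNA and IgG.

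Transcripts on unplaced scaffolds were more abundant in muscle and were not low in the precipitate, where 14.0% of them had an EZH2_FPKM of at least 10, against 8.30% on chromosomes. Scaffolds gave 31.0% of all ratios of at most -1 and 12.0% of all transcripts. Their median lincRNA_FPKM was 1.11, against 0.301 on X and 0.426 on chromosome 2, the highest of the chromosomes. A log2 ratio of at most -1 was found for 30.1% (28.0 to 32.3) of their transcripts, against 9.19% (8.69 to 9.71) on autosomes and 6.11% on X. Only a transcript with a lincRNA_FPKM of at least 2 can reach such a ratio, and 52.2% of scaffold transcripts were above 1, against at most 26.3% on any chromosome. Among transcripts with a lincRNA_FPKM above 1, 38.0% (34.9 to 41.2) of 910 on scaffolds were above 0 in EZH2, against 46.0% (44.1 to 47.9) of 2661 on chromosomes, and at up to 1 the shares were 45.3% (42.0 to 48.7) and 42.0% (41.1 to 43.0), with intervals that overlap. In IgG the shares above 1 were 7.80% and 9.02%.

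Summed by chromosome, the libraries had different sources. Unplaced scaffolds gave 68.3% of the sum in total RNA and a far smaller part in EZH2. Chromosome 6 gave 25.5% in EZH2, 1.52% in total RNA and 28.0% in IgG. Chromosome 15 gave 16.3% in EZH2, 4.35% in total RNA and 21.9% in IgG, so its part was larger in the control than in EZH2. X gave 5.10% in EZH2 and 0.294% in total RNA, and its part in IgG lay between these. Some of these sums rest on 1 transcript: without TCONS_00053344 chromosome 6 gave 5.27% of the sum in EZH2, less than the 9.02% of scaffolds without their highest, TCONS_00071881, and without TCONS_00045379, itself 6.80% of the sum, chromosome 4 gave 3.67%. Chromosome 15 gave 13.7% without its highest transcript, but 7.39% without the 7 transcripts from TCONS_00025358 to TCONS_00025364.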

How the data were processed

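RNA of longissimus dorsi muscle was measured in 3 libraries, namely lincRNAseq and the EZH2 and IgG precipitates. The values deposited by the authors are FPKM from Cuffdiff, computed on transcripts that Cufflinks assembled from trimmed reads placed on Sus_scrofa 10.2 by TopHat2; the tool versions are not given in the sources used here. FPKM depends on transcript length, so short transcripts reach high values from few fragments, and each library is scaled to its own total, so a few abundant RNAs lower all other values.

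Each file had 26521 lines for 14580 transcripts, 11941 of them on 2 identical lines, and each transcript was counted once. The ratio was log2[(EZH2_FPKM + 2)/(lincRNA_FPKM + 2)] with a threshold of 1. Classes of lincRNA_FPKM were bounded at 0, 0.1, 0.3, 1, 3, 10, 30, 100 and 1000, and classes of under 20 transcripts are given by counts only. Shares have 95% Wilson intervals. No p-value was computed, and 1 planned result is not reported here. The code was checked on made-up data that are not quoted. IgG values stand beside the others as the control.

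The transcripts and lists were chosen with earlier results of these data known. Named are the 3 RIP-PCR lincRNAs, the 2 transcripts at the head of each order (EZH2_FPKM, lincRNA_FPKM, each among those at 0 in the other library, and the highest and lowest ratios above 0 in both), and the highest in EZH2 on the chromosomes with the highest and lowest share detected. Identifiers are not paired with gene names. Sequences come from the study's supplementary tables. Alternatives were other minimums, pseudocounts, thresholds, scaling, subsets of transcripts and counting of lines. Calculations, with the Wilson intervals, ran in Python 3.11.15 with pandas 2.3.3 and numpy 2.4.6. The interval code was checked against scipy 1.17.1, and plots used matplotlib 3.10.9.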

Additional observations from a re-analysis of the deposited data

Results flagged for a closer look

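The IgG library, which the comparison of EZH2 with total RNA uses only as a control, held 35 transcripts that were listed at 0 in both other libraries. Their IgG_FPKM values ran from 0.0103 to 220.5 with a median of 25.2, and the highest, TCONS_00071672 on scaffold GL894597.1, was chosen after its value was seen. The part of failed estimates in these values was not tested.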

How the results depend on the processing

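Of 45 values of 13 results under other settings, 23 stayed within their counting interval or tolerance and 22 moved. Shares of a summed FPKM had no interval or tolerance and were counted as moved. Single counts and shares have no sign to reverse, but the balance of higher over lower ratios turned, from 63.5% higher to 39.6% with a pseudocount of 0.1. The cause of a move was not tested unless the setting makes it. The share detected in EZH2 was 36.5% with an EZH2_FPKM above 1, 8.98% above 10, 40.0% with transcripts above 0 in IgG left out and 44.7% for a lincRNA_FPKM above 0.1. Leaving out transcripts above 0 in IgG gave 43.2% in the class above 100 and up to 1000. Counts of ratios of at least 1 were 4670 with a pseudocount of 0.1, 1288 with a threshold of 2 and 5606 over lines, and those of at most -1 were 7117, 856 and 2570. Abundant transcripts listed at 0 in EZH2 were 85 with a lincRNA_FPKM of at least 100, 1078 with at least 3 and 808 over lines. Precipitated transcripts listed at 0 in total RNA were 125, 618 and 760 under the matching settings. With an EZH2_FPKM above 1 the lowest share of a chromosome was 31.1% and the highest 39.9%, on X. For a lincRNA_FPKM above 0.1 the highest was 49.9%, on chromosome 3. The following settings were chosen after seeing the data. Leaving out the highest transcript gave chromosome 6 5.27% of the sum in EZH2 and RNAs at 0 in total RNA 45.4%. Chromosome 15 gave 7.39% without its longest run and the next transcript. The share of X transcripts with a ratio of at least 1 was 26.6% with transcripts above 0 in IgG left out. That share was 28.4% with the libraries scaled to the same sum. No paired analysis was possible because there is 1 library on each side, with no test. The unknown depth of lincRNAseq limits what a value of 0 there says.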
